A study of Xenopus laevis with 72 samples.

Results

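The transcripts described here, in the Xenopus laevis embryo, encode members of the Kdm1, Kdm2 and Kdm5 families. These families hold enzymes that can take methyl groups off lysine 4 of histone H3 (H3K4), although the Kdm2 enzymes are known mainly for another site. Members were the gene entries whose name, without the homeolog suffix .L or .S, is kdm1a, kdm1b, kdm2a, kdm2b, kdm5a, kdm5b or kdm5c. Of 39668 entries, 9 met this rule, for 6 of the 7 symbols, and kdm5a was not analysed here. The rule itself is by name and uses no measured value, but the set was picked with earlier results of these data known.

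H3K4 methylation marks active and poised promoters, and it is set by methyltransferases and removed by 2 unrelated kinds of enzyme. The Kdm1 enzymes are flavin-dependent amine oxidases that act on mono- and dimethyl H3K4, and Kdm1a works within the CoREST corepressor complex. The Kdm5 enzymes belong to the Jumonji C class, use oxygen and 2-oxoglutarate, and remove the tri- and dimethyl forms. The Kdm2 enzymes are Jumonji C proteins known mainly for H3K36 and, for human KDM2B, also reported to act on trimethyl H3K4. They carry a CXXC zinc finger for unmethylated CpG, as do Cxxc1, which brings Set1 methyltransferases to CpG-rich promoters, and the methyltransferase Kmt2b. The early frog embryo runs on mRNA from the egg until zygotic genome activation, when many of these maternal messages are cleared.

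RNA was measured in whole embryos of 4 groups at 5.5, 6.5 and 7.5 hours post fertilisation (hpf). Embryos injected at the 1-cell stage with 9.2 nl of a 1 mM translation-blocking morpholino (an antisense oligo) against cxxc1 (Cxxc1 MO) or against kmt2b (Kmt2b MO) were set against embryos given a control morpholino (Ctrl MO) and against non-injected embryos (NI Ctrl). The experiment was done on 2 frogs, the biological replicates (frog 1 and frog 2), and for each of them 3 sets of 3 embryos per group and time point, so that 72 libraries in 12 groups of 6 were available. Such morpholinos block the making of protein and leave the mRNA, so that target transcripts would not check a knockdown. By Western blot the study reported less Cxxc1 and Kmt2b protein in the knockdown embryos, and less trimethyl H3K4 before and after genome activation. It also reported a partial rescue of Cxxc1 MO embryos with a morpholino-resistant cxxc1 mRNA, while no rescue could be made for Kmt2b. The study used 1 morpholino per target, and the kmt2b and cxxc1.L transcripts are not analysed here. Sets of 1 frog come from the same experiment, so p-values within a frog measure the spread between sets.

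The values are in TPM, a transcript abundance scaled to transcript length and to a fixed total per library. The depth behind a value is therefore unknown, and a lower TPM can mean less of that mRNA or more of other RNA. Among the 36 libraries of each frog, the median share of TPM in protein-coding entries at 5.5, 6.5 and 7.5 hpf was 75.6%, 83.3% and 66.5% in frog 1 and 85.1%, 77.3% and 53.6% in frog 2. The share in tRNA entries had medians of 0.0398%, 0.363% and 4.99% in frog 1 and 0.139%, 3.84% and 19.5% in frog 2. The stage of the embryos was described with lists of other genes. These lists were chosen with earlier results of these data known, so they are not an independent check. Of 30 tested entries for genes known to start at this stage, 29 and 30 were higher at 7.5 than at 5.5 hpf in NI Ctrl embryos of frogs 1 and 2, with none lower. Over all tested entries, 11.2% were called higher in both frogs. Of 16 maternal mRNAs 13 and 14 were lower, with median log2 changes of -0.54 and -1.25, against 14192 of 20263 and 16053 of 20625 of all tested entries, with medians of -0.69 and -1.10, so that the fall of this list is no larger than the general one in frog 1.

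All 9 members were present at 5.5 hpf, the earliest time sampled. kdm5b.S (chromosome 2S, 64731532 to 64757201 in assembly Xenopus_laevis_v10.1), encoding a Jumonji C enzyme for trimethyl H3K4, had the most transcripts per length in NI Ctrl embryos at 5.5 hpf, with 66.9, 62.9 and 63.7 TPM in frog 1 and 74.0, 81.0 and 64.5 TPM in frog 2. It stood above 86.0% of tested entries in frog 1. Both copies of kdm5c, the paralog that is X-linked in mammals, came next. kdm5c.L (8L, 11156723 to 11187618) had 58.0, 55.6 and 54.1 TPM and then 62.7, 65.9 and 53.9 TPM in frogs 1 and 2, and kdm5c.S (8S, 34793909 to 34819522) had 56.5, 51.3 and 53.1 TPM and then 56.2, 58.0 and 50.2 TPM. Their ranges overlapped each other in both frogs, and kdm5c.L overlapped kdm5b.S in frog 2 only.

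The flavin enzyme Kdm1a was also carried by both homeologs. kdm1a.S (2S, 80727003 to 80756943) averaged 45.4 ± 2.30 TPM in frog 1 and 53.2 ± 5.38 TPM in frog 2, and kdm1a.L (2L, 92595368 to 92629887) averaged 38.4 ± 1.75 and 45.1 ± 5.71 TPM (SD, n = 3 sets each). kdm1b.L (6L, 97988139 to 98017498), encoding the paralog needed for maternal imprints in the mouse oocyte, was the lowest member, at 6.85 ± 0.210 and 7.00 ± 0.880 TPM, above 31.4% of tested entries in frog 1. Among neighbours in the order of levels, only kdm2b.L and kdm1b.L had ranges that stayed apart in both frogs. These ranges set values of different libraries against each other. Within each NI Ctrl library at 5.5 hpf the order was the same. It ran kdm5b.S, kdm5c.L, kdm5c.S, kdm1a.S, kdm1a.L, kdm2a.L, kdm2b.S, kdm2b.L and kdm1b.L, from highest to lowest.

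The CXXC proteins stood between. kdm2a.L (7L, 63126122 to 63247292) averaged 36.0 ± 1.04 and 41.1 ± 3.82 TPM at 5.5 hpf, overlapping kdm1a.L in both frogs. kdm2b.S (1S, 150624810 to 150656829) averaged 32.0 ± 2.00 and 33.5 ± 3.79 TPM, and kdm2b.L (1L, 176110889 to 176177003) averaged 24.7 ± 2.95 and 29.0 ± 1.49 TPM (SD, n = 3 sets each). Kdm2b tethers a variant Polycomb repressive complex to CpG islands. The sums by family cover the listed entries alone, without kdm5a and with 1 copy each of kdm1b, kdm2a and kdm5b. The 3 kdm5 entries held 48.7% ± 0.251 and 47.5% ± 0.234 of the 357 and 398 TPM of all members, the 3 kdm1 entries 25.4% ± 0.571 and 26.5% ± 0.694, and the 3 kdm2 entries 25.9% ± 0.814 and 26.1% ± 0.529 (SD, n = 3 sets).

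**Figure D1:**
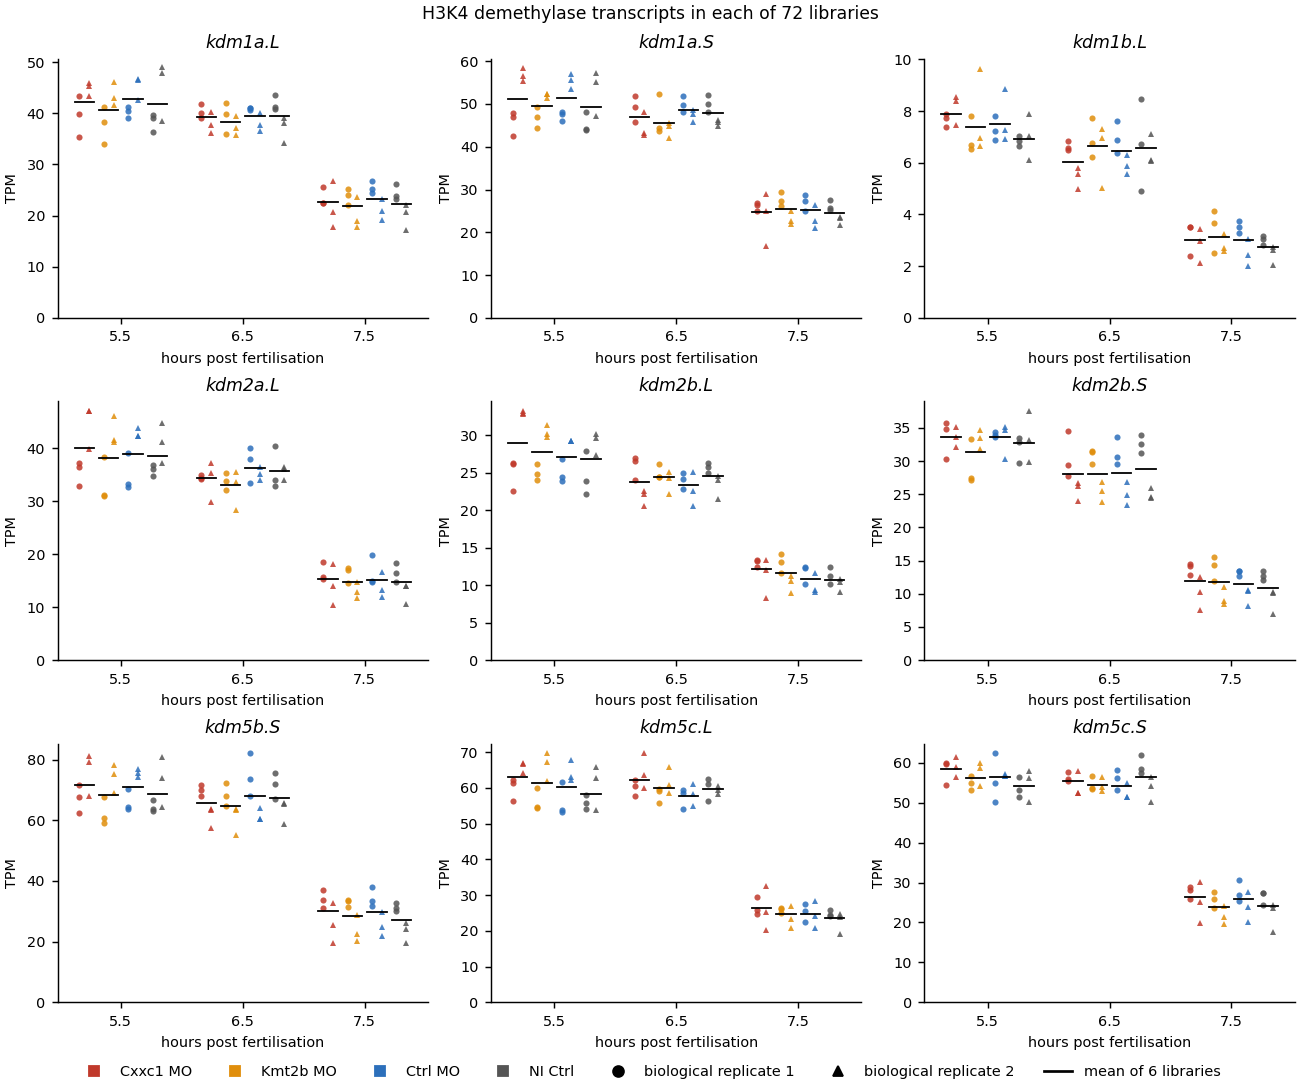
TPM (y axis, from 0) of each of the 9 members at 5.5, 6.5 and 7.5 hpf (x axis) in all 72 libraries, with Cxxc1 MO, Kmt2b MO, Ctrl MO and NI Ctrl side by side at each time point, circles and triangles for the 2 frogs and a bar for the mean of 6 libraries. For every member, group and frog, all sets at 7.5 hpf lay below all sets at 6.5 hpf, while no member was called different between groups at any time point.

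The first question was how these mRNAs behave as the genome is activated. Between 5.5 and 6.5 hpf no member was called higher or lower in both frogs, where called means an adjusted p under 0.05 (limma across all tested entries, Benjamini-Hochberg) with the same direction in both. At an unadjusted p under 0.05 there were 2 of 9 in frog 1 and 3 of 9 in frog 2. Over all 19544 entries tested, 1.56% were called higher and 0.0358% lower. The mean sum of the members moved in opposite directions in the 2 frogs. In NI Ctrl embryos it went from 357.2 ± 14.1 to 383.5 ± 17.8 TPM in frog 1 (SD, n = 3 sets). In frog 2 it went from 397.8 ± 38.6 to 349.4 ± 6.44 TPM. There kdm2b.S was already lower in all sets, at 24.5, 24.4 and 25.9 TPM against 33.1, 37.5 and 29.9 TPM, while its sets overlapped in frog 1.

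The fall called in both frogs came in the following hour. At 7.5 hpf all 9 members were called lower than at 6.5 hpf in both frogs (limma), by log2 changes on the log2(TPM + 1) scale of -0.75 to -1.29 in frog 1 and -0.87 to -1.42 in frog 2. In the same comparison 73.1% of entries were called lower and 9.73% higher, so a fall in itself is the usual pattern here. Against 5.5 hpf all 9 were again lower, with a median log2 change of -1.02 in frog 1 and -1.39 in frog 2, where the medians of all tested entries were -0.69 and -1.10. In that comparison 70.6% of entries were called lower and 11.2% higher.

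The estimated falls of the members differed in size. kdm2b.S fell most, to 12.1, 12.7 and 13.4 TPM at 7.5 hpf in frog 1, against 32.9, 29.7 and 33.4 TPM at 5.5 hpf, and to 6.94, 10.2 and 10.3 TPM in frog 2, against 33.1, 37.5 and 29.9 TPM. Its log2 changes were -1.27 ± 0.07 (SE, adjusted p = 4.57e-07, limma) and -1.78 ± 0.14 (adjusted p = 1.26e-06), and only 5.49% and 4.50% of tested entries changed further downwards. kdm1a.L fell least, to 23.8, 26.3 and 23.3 TPM in frog 1, against 39.1, 39.6 and 36.4 TPM, and to 17.2, 22.1 and 20.7 TPM in frog 2, against 49.0, 47.8 and 38.6 TPM. Its log2 changes were -0.63 ± 0.06 (adjusted p = 1.43e-05, limma) and -1.14 ± 0.12 (adjusted p = 9.41e-06), and 54.9% and 47.8% of entries fell further. The 95% intervals of these extremes did not meet in either frog, at -1.42 to -1.11 for kdm2b.S and -0.78 to -0.48 for kdm1a.L in frog 1, and at -2.10 to -1.46 and -1.41 to -0.86 in frog 2. However, kdm2b.S and kdm1a.L were picked from these same values as the largest and smallest falls. The intervals are not adjusted for that choice, and kdm2b.S and kdm1a.L were not tested against each other.

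The other members lay between them and are listed here by family. In both frogs the kdm1 entries fell less on this scale than every kdm2 and kdm5 entry. The kdm2 and kdm5 entries were interleaved, and the families were not tested against each other. Among the Kdm2 genes, kdm2a.L changed by -1.08 and -1.61 and kdm2b.L by -1.06 and -1.44 in frogs 1 and 2 (log2, 7.5 against 5.5 hpf). Among the Kdm5 genes, kdm5b.S changed by -1.02 and -1.62, kdm5c.L by -1.14 and -1.39 and kdm5c.S by -1.0 and -1.29. kdm1b.L changed by -0.97 and -1.21 and kdm1a.S by -0.77 and -1.18. All were called in both frogs by the limma fit. With the mean of both frogs the order of falls was kdm2b.S, kdm2a.L, kdm5b.S, kdm5c.L, kdm2b.L, kdm5c.S, kdm1b.L, kdm1a.S and kdm1a.L. This order is on the log2(TPM + 1) scale, which understates the fall of kdm1b.L, the lowest member. Its mean went from 6.85 to 3.02 TPM in frog 1 and from 7.00 to 2.46 TPM in frog 2, and its place in the order depends on this scale. In proportion this is a larger fall than that of kdm5c.S, from 53.6 to 26.3 TPM and from 54.8 to 21.9 TPM. On mean TPM the smaller fall of the kdm1 entries therefore holds for kdm1a.L and kdm1a.S only.

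The makeup of the set shifted accordingly. At 7.5 hpf the kdm1 entries held 30.4% ± 0.683 and 31.4% ± 1.45 of the summed TPM of the members in NI Ctrl embryos, the kdm5 entries 46.7% ± 0.703 and 46.6% ± 0.909, and the kdm2 entries 22.9% ± 0.460 and 22.0% ± 0.556 (SD, n = 3 sets). The sum of all members was 177 and 145 TPM. Of the kdm1 sums of 53.6 and 45.4 TPM, kdm1b.L made up 3.02 and 2.46 TPM, so the kdm1 share is mostly that of kdm1a. kdm1a.S ranked 3 in frog 1 and 2 in frog 2 in the order of levels at 7.5 hpf, and at this time the ranges of kdm1a.S, kdm5c.L and kdm5c.S overlapped.

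Since TPM is relative to all other RNA, the course was repeated with each library centred on the median of its tested entries. This moved the split of all entries from 5.5 to 7.5 hpf to 40.9% lower and 18.7% higher. On that scale 8 of 9 members were still called lower in both frogs, with log2 changes of -0.26 to -0.75 in frog 1 and -0.29 to -0.90 in frog 2. kdm1a.L, at -0.12 and -0.25, was not called in frog 1 (adjusted p = 0.0610, limma). From 6.5 to 7.5 hpf the centred split of entries was 40.3% lower and 15.5% higher, and 7 of 9 members were called lower; kdm1a.L missed in frog 2 (adjusted p = 0.0523) and kdm1b.L in frog 1 (adjusted p = 0.0657). With TPM rescaled to protein-coding entries, all 9 were called lower in both frogs at 7.5 hpf against either earlier time point. Fewer cells of a type and less RNA per cell cannot be told apart in whole embryos.

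**Figure D2:**
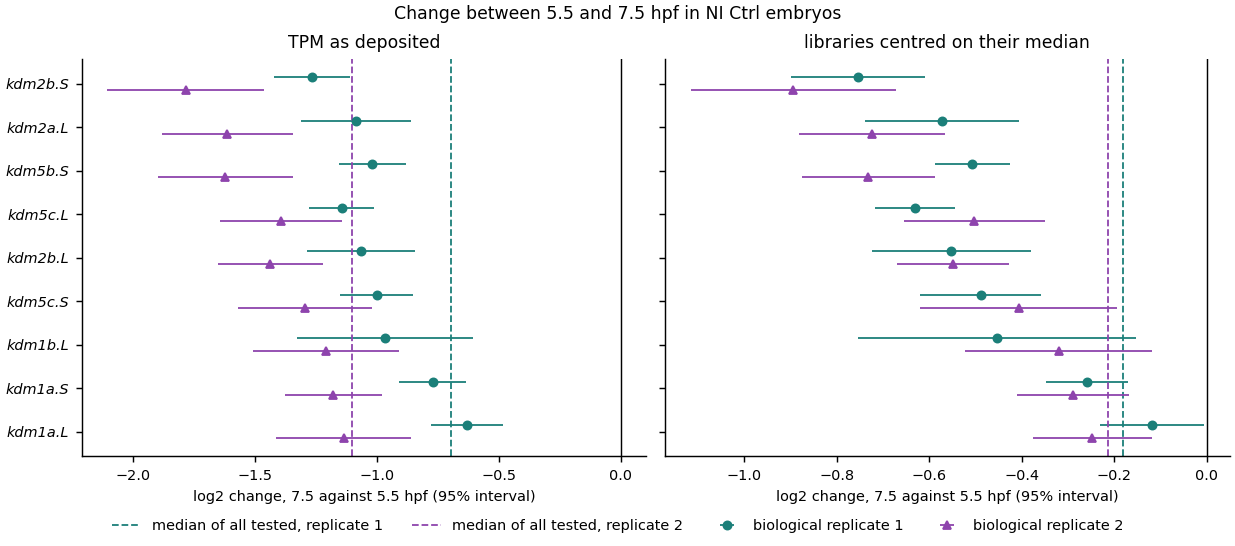
Log2 change from 5.5 to 7.5 hpf in NI Ctrl embryos (x axis) with its 95% interval for each member (y axis, by mean fall), for frog 1 (circles) and frog 2 (triangles), on TPM as deposited (left) and with libraries centred on their median (right). Dashed lines mark the median change of all tested entries; kdm2b.S lies farthest below them and kdm1a.L closest to them.

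The log2 changes were larger in frog 2 than in frog 1, a difference tested after the values were seen. For 7.5 against 5.5 hpf, 6 of 9 members differed (limma interaction over 18 NI Ctrl libraries), all falling further in frog 2, where 53.0% of all entries differed in either direction. kdm5b.S had the largest difference, -0.60 ± 0.14 on the log2 scale (SE, adjusted p = 0.00365), with 19.4, 26.0 and 24.1 TPM at 7.5 hpf in frog 2 and 30.1, 32.8 and 31.0 TPM in frog 1. For 6.5 against 5.5 hpf, kdm1a.L and kdm1a.S differed, by -0.39 and -0.35, against 28.5% of all entries. For 7.5 against 6.5 hpf no member was called (1 of 9 at an unadjusted p under 0.05), against 7.72% of entries. With libraries centred on their median, no member was called for 7.5 against 5.5 hpf or for 6.5 against 5.5 hpf (1 and 0 of 9 at an unadjusted p under 0.05), while 13.5% and 10.3% of entries were. The share of TPM in tRNA entries moved with this difference, as given above, and its part in it was not tested.

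Most genes with known ties to the members were lower too, as were most entries of any kind. Of all entries tested, 70.6% were called lower in both frogs at 7.5 than at 5.5 hpf. The counts of all entries in each frog are given above with the stage lists. Among 26 tested entries for the Set1 and Mll type methyltransferases and their subunits, 24 and 25 were called lower at 7.5 than at 5.5 hpf in frogs 1 and 2 (limma), with median log2 changes of -0.98 and -1.45, and 2 and 0 were called higher. Of 20 entries for partners of Kdm1a in CoREST and related corepressors, 19 and 19 were lower. Of 18 entries for the variant Polycomb complex of Kdm2b, 14 and 17 were lower and 1 and 0 higher, and of 23 entries for other Jumonji C proteins, 22 and 23. In all 4 lists the median fall exceeded that of all tested entries in both frogs, but this excess was not tested. The tested entries were not matched to the lists for level. They include low entries, whose changes log2(TPM + 1) understates, and entries that rose.

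Likeness of pattern was described over 24 group means of log2(TPM + 1), centred within each frog, among 14915 other genes averaging 5 TPM or more for each frog. The points share the fall with time and the total of each library, so high correlations are common, and they are given as a description. kdm2b.S was most like map2k4.S (Pearson's r = 0.999), a kinase gene, kifc1.L (0.998), a kinesin gene, and sf1.S (0.998), a splicing factor gene. kdm1a.L was most like ythdc2.L, LOC108701499 and atxn1l.L (r = 0.998 each). Pairs of members had r of 0.978 to 0.998, and kdm1a.S, the homeolog of kdm1a.L, ranked 367 by this measure.

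The homeologs of 3 genes could be compared in the same libraries. At 5.5 hpf in NI Ctrl embryos kdm1a.L was lower than kdm1a.S, by a log2 difference (L minus S) of -0.24 ± 0.04 (SE, adjusted p = 0.000660) in frog 1 and -0.24 ± 0.06 (adjusted p = 0.00332) in frog 2 (limma over all L and S pairs). kdm2b.L was lower than kdm2b.S, by -0.37 ± 0.07 (adjusted p = 0.000837) and -0.20 ± 0.07 (adjusted p = 0.0224). kdm5c.L and kdm5c.S differed by 0.06 ± 0.05 (adjusted p = 0.255) and 0.15 ± 0.04 (adjusted p = 0.0106), so that this pair was not called. Of 5395 pairs, 78.8% were called, and the median size of the difference over all pairs was 0.87 and 0.88, larger than for any of these 3 genes. Without the NI Ctrl library of set 2 at 5.5 hpf of frog 2, kdm2b was no longer called (mean of both frogs -0.25, larger adjusted p = 0.165), which left 1 pair.

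Whether a shift in the balance of the copies over time was called depended on the libraries fitted. In NI Ctrl embryos alone no pair was called for a change of L minus S from 5.5 to 7.5 hpf in both frogs (0 of 3 in frog 1 and 1 of 3 in frog 2 at an unadjusted p under 0.05, limma), against 26.8% of all pairs; kdm2b came nearest, at 0.20 ± 0.10 (adjusted p = 0.146, limma) and 0.35 ± 0.10 (adjusted p = 0.0164), and was called without the NI Ctrl library of set 3 at 7.5 hpf of frog 1 (mean of both frogs 0.33, larger adjusted p = 0.0300). A fit to all 36 libraries of each frog, averaged over the 4 groups and added after the values were seen, called all 3 pairs, as it did 54.4% of all pairs (85.9% for the level at 5.5 hpf, where kdm1a and kdm2b were again the called pairs). kdm2b.S fell further than kdm2b.L, the difference in change being 0.23 ± 0.04 (adjusted p = 2.25e-05) and 0.24 ± 0.04 (adjusted p = 7.89e-06). kdm1a.S fell further than kdm1a.L, by 0.11 ± 0.04 (adjusted p = 0.00908) and 0.12 ± 0.04 (adjusted p = 0.00467). For kdm5c the L copy fell further, at -0.10 ± 0.03 (adjusted p = 0.00236) and -0.11 ± 0.02 (adjusted p = 9.41e-05).

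The ratios show the size of these shifts. For kdm2b the median ratio of L to S over 12 libraries was 0.745, 0.793 and 0.921 at 5.5, 6.5 and 7.5 hpf in frog 1, and 0.925, 0.918 and 1.08 in frog 2, where L exceeded S in 11 of 12 libraries at 7.5 hpf. For kdm5c the median ratio was 1.03, 1.04 and 0.950 in frog 1 and 1.13, 1.13 and 1.03 in frog 2. For kdm1a L exceeded S in 0 of 36 libraries in frog 1 and in 1 of 36 in frog 2. The copies of a pair are similar in sequence, and how the pseudoalignment divided reads between them was not tested.

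**Figure D3:**
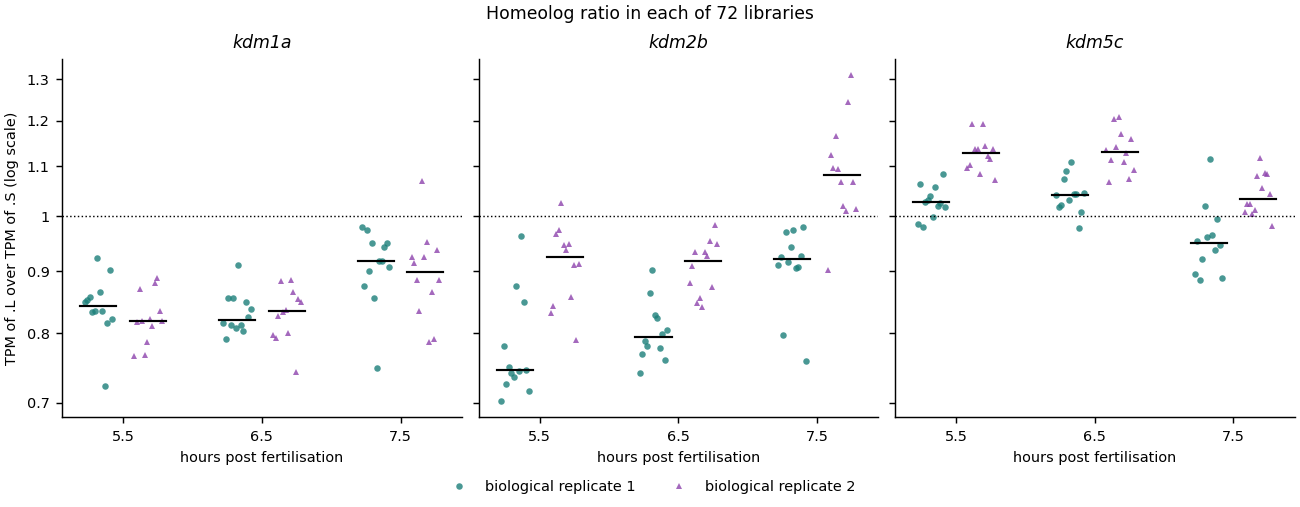
Ratio of the TPM of the .L copy to that of the .S copy (y axis, log scale) for kdm1a, kdm2b and kdm5c in each of 72 libraries by time point (x axis), with circles and triangles for frogs 1 and 2 and a bar for the median of 12 libraries. The kdm2b ratio was higher at 7.5 hpf (medians 0.921 and 1.08) than at 5.5 hpf (medians 0.745 and 0.925), and the kdm5c ratio was lower.

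The second question was whether loss of Cxxc1 or Kmt2b changes the transcripts of these Kdm1, Kdm2 and Kdm5 enzymes. No member was called in either knockdown at any time point (limma over both frogs, 24 libraries per time point). Over 54 values, 9 members in 2 knockdowns at 3 time points, log2 changes against Ctrl MO lay between -0.12 and 0.14, the lowest adjusted p was 0.277, and 3 reached an unadjusted p under 0.05. All 95% intervals lay between -0.31 and 0.34, which is between 0.809-fold and 1.27-fold, so a change beyond these bounds lies outside every interval, while a smaller one could go undetected. The intervals count each set as a replicate, with frog as a covariate, so with 2 frogs they do not measure the spread between clutches. Of all entries tested, 0.379%, 1.00% and 0.537% were called in Cxxc1 MO embryos and 0.711%, 2.25% and 1.78% in Kmt2b MO embryos at 5.5, 6.5 and 7.5 hpf.

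kdm2b.L in Cxxc1 MO embryos had the largest of these values. At 7.5 hpf it had 12.4, 13.2 and 13.4 TPM in Cxxc1 MO embryos of frog 1, against 12.3, 12.4 and 10.09 TPM in Ctrl MO embryos, and 12.1, 8.24 and 13.4 TPM in Cxxc1 MO embryos of frog 2, against 9.35, 9.12 and 11.7 TPM in Ctrl MO embryos. The groups overlapped in frog 2, where 1 Cxxc1 MO library lay below every Ctrl MO library, and touched at 12.4 TPM in frog 1. The log2 change was 0.14 ± 0.10 (SE, 95% interval -0.05 to 0.34, adjusted p = 0.981, limma), and 0.22 (adjusted p = 0.338) without that library, with adjusted p values of 0.125 to 1.00 over the alternatives. It was also the library with the lowest share of protein-coding TPM, 47.9%, and the highest share of tRNA, 25.1%, of the 12 at 7.5 hpf of frog 2. At 5.5 hpf in frog 2 the groups were apart, at 32.8, 32.9 and 33.3 TPM in Cxxc1 MO embryos against 29.2, 29.2 and 29.3 TPM in Ctrl MO embryos, a log2 change of 0.17 ± 0.04 with an adjusted p of 0.564. In frog 1 the change of kdm2b.L at 5.5 hpf was -0.01 ± 0.09.

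The 3 values with an unadjusted p under 0.05 were all at 6.5 hpf. kdm5c.L had 62.1, 60.5 and 57.7 TPM in Cxxc1 MO embryos of frog 1, against 58.4, 54.1 and 59.4 TPM in Ctrl MO embryos, and 69.7, 60.0 and 63.5 TPM in Cxxc1 MO embryos of frog 2, against 58.3, 54.9 and 61.1 TPM in Ctrl MO embryos. Its log2 change was 0.11 ± 0.04 (adjusted p = 0.277, limma; 0.105 to 0.582 over the alternatives), with overlapping groups in both frogs. In Kmt2b MO embryos the log2 change of kdm1a.S was -0.10 ± 0.04 (adjusted p = 0.350; 0.112 to 0.609 over the alternatives) and that of kdm2a.L -0.12 ± 0.06 (adjusted p = 0.384; 0.253 to 0.70 over the alternatives). kdm1a.S had 43.8, 44.3 and 52.4 TPM in Kmt2b MO embryos of frog 1, against 49.8, 51.9 and 48.1 TPM in Ctrl MO embryos, and 44.8, 42.0 and 45.6 TPM in Kmt2b MO embryos of frog 2, against 45.8, 47.7 and 48.6 TPM in Ctrl MO embryos. Only in frog 2 did these groups not overlap. kdm2a.L had 32.1, 33.9 and 35.4 TPM in Kmt2b MO embryos of frog 1, against 40.1, 33.4 and 38.0 TPM in Ctrl MO embryos, and 35.6, 28.4 and 33.6 TPM in Kmt2b MO embryos of frog 2, against 35.1, 34.1 and 36.5 TPM in Ctrl MO embryos, so that its groups overlapped in both frogs.

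The most abundant member, kdm5b.S, stayed within its spread. At 7.5 hpf it had 31.2, 37.0 and 33.7 TPM in Cxxc1 MO embryos and 31.4, 33.9 and 33.5 TPM in Kmt2b MO embryos of frog 1, against 38.0, 33.4 and 31.7 TPM in Ctrl MO embryos. In frog 2 it had 25.5, 19.7 and 32.7 TPM in Cxxc1 MO embryos and 28.7, 20.3 and 22.5 TPM in Kmt2b MO embryos, against 24.9, 21.8 and 29.8 TPM in Ctrl MO embryos. All groups overlapped, and the log2 changes against Ctrl MO were -0.00 ± 0.10 for Cxxc1 MO and -0.08 ± 0.10 for Kmt2b MO. kdm5c.S in Kmt2b MO embryos had the lowest value at this time, -0.11 ± 0.10 (95% interval -0.31 to 0.09, adjusted p = 0.854).

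Within single frogs, no member was called in any of the 12 comparisons of a knockdown with Ctrl MO (limma, 12 libraries each). At an unadjusted p under 0.05 there was 1 of 9 in 3 of them, namely kdm2b.S in Kmt2b MO embryos at 5.5 hpf in frog 1 and, in frog 2, kdm2b.L and kdm5c.L in Cxxc1 MO embryos at 5.5 and 6.5 hpf. In frog 1 the shares of all entries called at 5.5, 6.5 and 7.5 hpf were 0.0197%, 0.0444% and 0.0296% in Cxxc1 MO embryos and 0.0148%, 0.123% and 0.0247% in Kmt2b MO embryos. In frog 2 they were 0.0533%, 0.194% and 0.107% in Cxxc1 MO embryos and 0.0873%, 0.616% and 0.465% in Kmt2b MO embryos. No knockdown effect on a member was called different between the frogs (limma interaction, lowest adjusted p = 1.00, none at an unadjusted p under 0.05).

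Neither the injection itself nor the choice of target gave a call among the members. Ctrl MO embryos differed from NI Ctrl embryos by log2 changes of -0.07 to 0.13, with no member called or at an unadjusted p under 0.05 (limma), where 0.0307%, 0.0307% and 0.0102% of entries were called at 5.5, 6.5 and 7.5 hpf. Kmt2b MO differed from Cxxc1 MO by -0.14 to 0.12, again with no member called or at an unadjusted p under 0.05, and 0%, 0% and 0% of entries called. The change from 5.5 to 7.5 hpf was not called different from that in Ctrl MO embryos for any member in Cxxc1 MO (-0.07 to 0.06, 0.00512% of entries called) or Kmt2b MO embryos (-0.11 to 0.13, 0.148% of entries called), with none at an unadjusted p under 0.05 (limma, 72 libraries). In each group kdm1a.L fell least in both frogs. kdm2b.S fell most in all of them but Kmt2b MO embryos of frog 1, where kdm5c.L changed by -1.09.

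**Figure D4:**
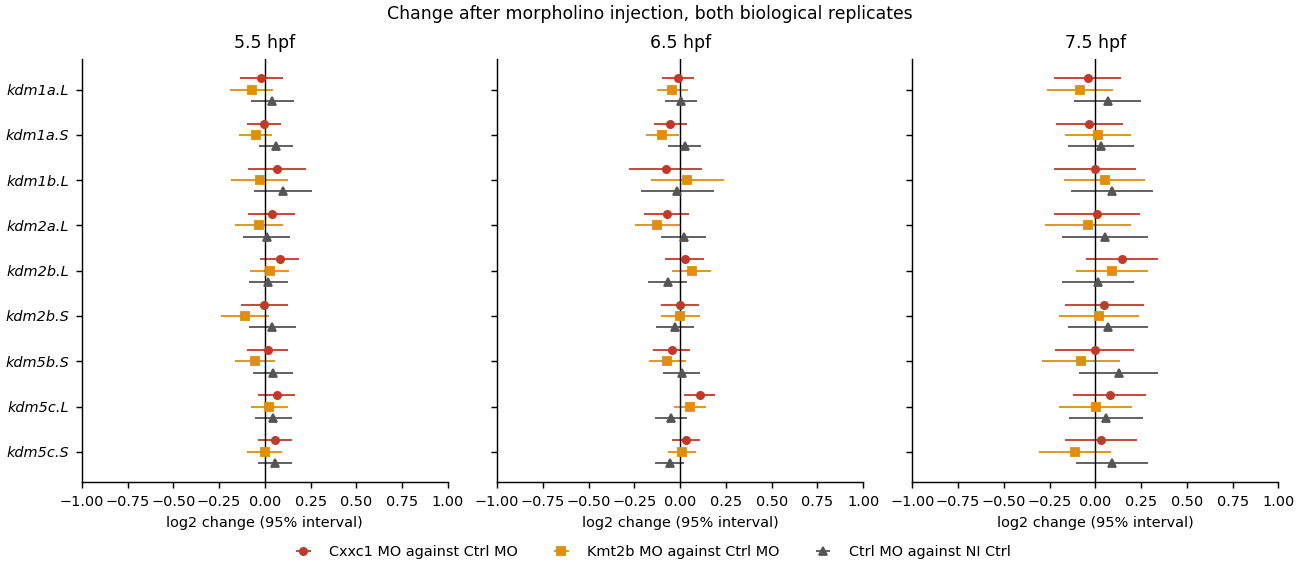
Log2 change with its 95% interval (x axis) of each member (y axis) at 5.5, 6.5 and 7.5 hpf for Cxxc1 MO against Ctrl MO (circles), Kmt2b MO against Ctrl MO (squares) and Ctrl MO against NI Ctrl (triangles), from the fit over both frogs. All values for the knockdowns lie between -0.12 and 0.14, and no member was called.

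Of the other chromatin genes, none of the 26 methyltransferase, 20 corepressor, 18 variant Polycomb or 23 other Jumonji C entries was called in Cxxc1 MO or Kmt2b MO embryos at any time point over both frogs (limma), with 0 to 5 entries of a list at an unadjusted p under 0.05. Of the genes that mark the stage, 7 of the 30 zygotic entries at 7.5 hpf were called lower with Cxxc1 MO and 22 with Kmt2b MO. The median log2 changes of the list were -0.59 and -0.64. Of all entries, 0.537% and 1.78% were called in either direction, and 0% for Kmt2b MO against Cxxc1 MO at this time. The zygotic list was chosen with these results known and is not independent evidence. The organizer gene gsc.S was among the entries called lower with both, with log2 changes of -0.97 ± 0.16 (SE, adjusted p = 0.00398, limma) for Cxxc1 MO and -1.0 ± 0.16 (adjusted p = 0.00112) for Kmt2b MO. foxd4l1.1.S and ventx2.1.L, a neural and a ventral transcription factor gene, had log2 changes of -0.70 ± 0.17 (adjusted p = 0.0579, limma) and -0.72 ± 0.16 (adjusted p = 0.0283) with Cxxc1 MO and of -1.02 ± 0.17 (adjusted p = 0.00114) and -0.94 ± 0.16 (adjusted p = 0.00122) with Kmt2b MO. With Cxxc1 MO foxd4l1.1.S was thus not called. Of the 16 maternal mRNAs, zp4.S was higher in Kmt2b MO embryos at 5.5 hpf (0.40 ± 0.09, adjusted p = 0.0458) and btg4.S at 7.5 hpf (0.36 ± 0.08, adjusted p = 0.0249).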

How the data were processed

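Whole-embryo RNA depleted of rRNA was sequenced in 72 libraries of Xenopus laevis. The authors pseudoaligned reads with kallisto 0.48 to Xenbase transcripts of assembly 10.1, imported them with tximport and deposited TPM per gene, with 1 table per frog. TPM holds no counts, so no count test was run. Groups came from the sample labels, and 0 columns were left out.

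Tests were made on log2(TPM + 1), which understates changes of low genes, for entries averaging 1 TPM or more in a table's 36 libraries. The linear models of limma 3.58.1 were used in R 4.3.3, with eBayes moderation and a mean trend. P-values were adjusted by Benjamini-Hochberg over all entries tested (20263 and 20625, and 19544 in both tables). The course used the 9 NI Ctrl libraries of a table. Knockdowns used 12 libraries per time point and table, or 24 with frog as a covariate, and changes were taken within a table. L minus S was fitted over all named pairs with a summed mean of at least 1 TPM. Fits were also run on simulated data with known changes. Noise was drawn there for each entry on its own, so shifts shared by the entries of a library were not covered.

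Alternatives were a pseudocount of 0.1, no filter, centring on the median, protein-coding TPM, other sets of libraries, the set number as a block and leaving out each library. All members are named, with up to 3 called genes per context list by smallest p and the 3 genes most like the members of largest and smallest fall. Members and lists were chosen with earlier results of these data known. Coordinates and gene kinds were taken from RefSeq for Xenopus_laevis_v10.1 by symbol (38926 of 39668 entries, 9 of 9 members).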

Additional observations from a re-analysis of the deposited data

Results flagged for a closer look

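Each member was checked in each group of 6 libraries, and 5 of these 108 checks found a library far from the others. Chance gives about 5% per check where all libraries share 1 level. The 6 libraries come from both frogs, whose levels can differ, so this rate is nominal and an outlier within a frog can be missed. The checks are also not independent, since the members share the same libraries. At 7.5 hpf in Cxxc1 MO embryos the second set of frog 2 was low for kdm1a.S, with 16.7 TPM where the others had 24.9 to 28.9, and for kdm2b.L, with 8.24 TPM where the others had 12.1 to 13.4. All 9 members were lowest in that library, in which protein-coding entries held 47.9% and tRNA entries 25.1% of TPM. The third set of frog 1 was high for kdm1a.S in Kmt2b MO embryos at 6.5 hpf (52.4 TPM, others 42.0 to 45.6). The third set of frog 2 was low for kdm2b.S in Ctrl MO embryos at 5.5 hpf (30.3 TPM, others 33.6 to 35.2). The first set of frog 2 was low for kdm5c.L in NI Ctrl embryos at 7.5 hpf (19.2 TPM, others 23.9 to 25.8), and all 9 members were lowest there.

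The change with time in NI Ctrl embryos differed between the frogs, by an interaction of time and frog in limma. From 5.5 to 7.5 hpf the log2 change in frog 2 minus that in frog 1 was -0.50 for kdm1a.L, -0.41 for kdm1a.S, -0.53 for kdm2a.L, -0.37 for kdm2b.L, -0.52 for kdm2b.S and -0.60 for kdm5b.S. From 5.5 to 6.5 hpf it was -0.39 for kdm1a.L and -0.35 for kdm1a.S. None of these was called with libraries centred on their median (lowest adjusted p = 0.0626 for kdm5b.S at 7.5 hpf).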

How the results depend on the processing

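The counts of called members were within 1.5 times their value under the alternatives run, except for homeologs and for the difference between frogs in NI Ctrl embryos. With centred libraries that difference was called for 0 members, against 6 from 5.5 to 7.5 hpf and 2 from 5.5 to 6.5 hpf without centring. The number of pairs called for a change of L minus S was 3 with all 36 libraries of a frog, and 0 to 1 when a library was left out. The number called for the level at 5.5 hpf was 1 to 2 when a library was left out. With the set number as a replicate block, 9 members were again lower at 7.5 hpf and 0 were called in any knockdown comparison. The set numbers were not taken as pairs: the median correlation of same-numbered deviations was between -0.03 and 0.06 by frog and time point, although 6 of 18 exceeded 0.1 at 7.5 hpf in frog 2 (highest 0.313), where set 2 was lowest of its group for 9 members with Cxxc1 MO, for 6 with Kmt2b MO and for 8 with Ctrl MO. Of the called member values of the course, the knockdowns and the homeologs, none reversed; 3 lost their call with centred libraries (kdm1a.L from 5.5 to 7.5 and from 6.5 to 7.5 hpf, kdm1b.L from 6.5 to 7.5 hpf) and kdm2b, as L minus S at 5.5 hpf, lost it without 1 library. Of 4278 recomputed values of uncalled results, 4 were called, all for L minus S over time, and 403 changed sign. Depth is unknown in TPM, so what it limits was not assessed, and 3 sets of 1 clutch limit each frog.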
